A study of Rattus norvegicus with 42 samples.

Results

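Serpinb11 encodes a serpin of clade B, the ovalbumin-like branch of the serine protease inhibitor family whose members lack a classical signal peptide and act mostly inside cells. It was measured by 1 probe set, 1392714_at, the only probe set carrying its symbol, and it is 1 of 14217 genes that had a probe set of their own on the array. The gene was chosen by its values in these same arrays, which fell into a high and a low level with nothing between them. Its levels are therefore given as a description, without a test. Expression was measured in whole blood of 42 male Sprague-Dawley rats on Affymetrix Rat Genome arrays, with 6 rats and 6 arrays in each of 7 groups.

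The Reperfused-MCAO + tPA group had 2 h of middle cerebral artery occlusion (MCAO, an intraluminal suture model of ischemic stroke) and received tPA (recombinant tissue plasminogen activator, 3.3 mg/kg) at 3 h, and the Reperfused-MCAO group had the same occlusion without tPA. The Permanent-MCAO + tPA and Permanent-MCAO groups had 24 h of occlusion with and without that dose. The tPA group received the drug without MCAO, and the Anesthesia and Naive groups had neither tPA nor MCAO, with nothing further given of them than these names. MCAO was carried out under isoflurane, and isoflurane was also given for the blood draw by cardiac puncture at 24 h, with no group excepted in the methods. Naive rats may therefore have had this terminal anesthesia too. The methods do not say whether rats of the tPA group were anesthetised when the drug was given, so tPA and any such difference cannot be told apart in tPA against Anesthesia, and no sham-operated group was included.

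Serpins trap their target protease by a large change of shape after the protease cuts an exposed reactive loop, and some members no longer inhibit anything. Mouse Serpinb11 inhibits trypsin-like serine proteases, whereas human SERPINB11 is regarded as non-inhibitory. Clade B serpins of leukocytes, such as those directed against granzyme B, cathepsin G and neutrophil elastase, guard cells against their own granule proteases, and serpins of other clades inhibit tPA itself in plasma. The Serpinb11 gene lies on rat chromosome 13 within a row of clade B genes, with Serpinb3 and Serpinb12 on one side and Serpinb7, Serpinb2 and Serpinb10 on the other.

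The 250 bases before the RefSeq transcription start of Serpinb11 (chr13:23840576-23840825, GRCr8, plus strand) are shown because they lie directly before the start given for the gene whose level was divided. Which transcript the probe set detects was not examined, and other annotated transcripts of the gene start further upstream. The capitals mark the only match among 4 short motifs searched on both strands.
Serpinb11: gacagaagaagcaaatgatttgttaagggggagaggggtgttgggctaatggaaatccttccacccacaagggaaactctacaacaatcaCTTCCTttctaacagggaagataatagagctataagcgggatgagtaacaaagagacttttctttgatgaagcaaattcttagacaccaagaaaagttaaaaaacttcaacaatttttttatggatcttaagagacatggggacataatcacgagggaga
The match is AGGAAG, a core recognised by ETS factors, on the minus strand with its first base at position -160 from the start. The same letters occur in 29.5% of 33469 RefSeq promoters of this length. No match was found to TATAAA (in 12.9% of promoters) or CCAAT (34.0%), and none to GATAAG (6.18%), so these letters are not in this window. A match is a description and not a binding site.

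All values that follow are GC-RMA log2 levels, so that a difference of 1 corresponds to a doubling of signal. In the Reperfused-MCAO + tPA group Serpinb11 was 5.90, 2.29, 2.32, 2.41, 2.62 and 2.56. The Reperfused-MCAO rats measured 2.43, 2.41, 9.04, 2.67, 8.14 and 8.92. Thus 1 of 6 rats with tPA stood at the high level, against 3 of 6 rats without it.

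Permanent-MCAO + tPA rats measured 8.44, 9.89, 7.30, 7.91, 2.30 and 7.83, and Permanent-MCAO rats 8.46, 9.33, 8.25, 9.87, 8.98 and 2.47. In both groups 5 of 6 rats were high and 1 was low. The tPA group without MCAO had 2.30, 7.16, 6.58, 8.40, 7.59 and 2.29, with 4 of 6 rats high. Anesthesia rats had 7.29, 8.40, 6.78, 7.98, 7.54 and 8.02, all high. The Naive rats had 2.69, 2.35, 2.32, 2.58, 2.34 and 2.36, all low. The ranges of Anesthesia and Naive rats did not overlap, while the other 5 groups held rats at both levels.

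**Figure D1:**
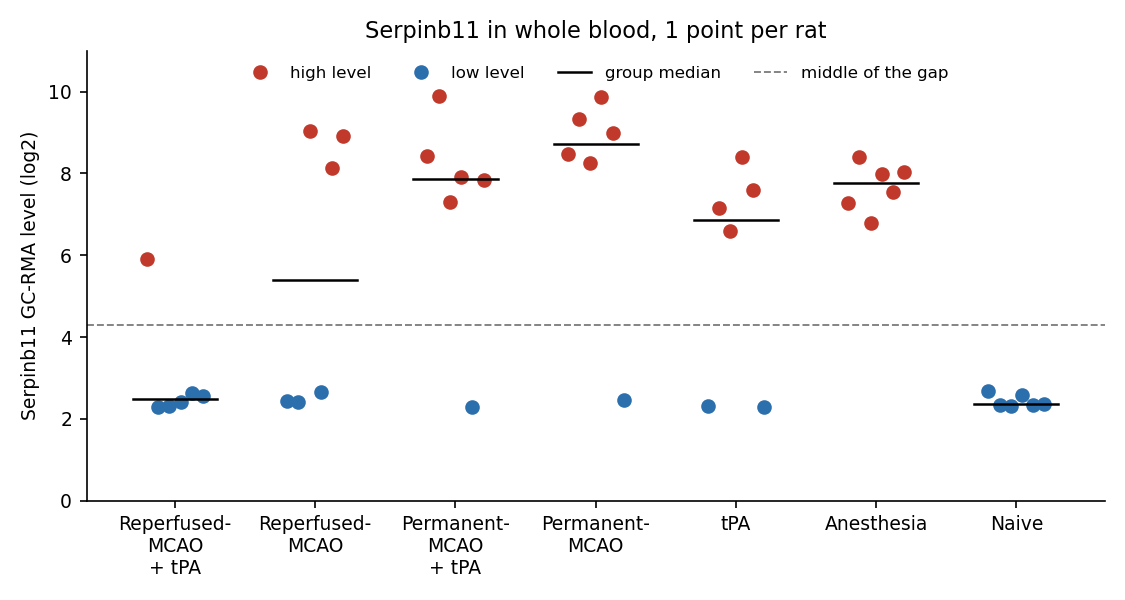
Serpinb11 level on the GC-RMA log2 scale (vertical axis) in each of the 42 rats, by group, with high arrays in red, low arrays in blue, the group median as a black bar and the middle of the empty gap as a dashed line. All 6 Anesthesia rats lie above the gap and all 6 Naive rats below it, and the other groups have 1 to 5 high rats.

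Across the series 24 arrays were high and 18 were low. The lowest high value was 5.90, in a Reperfused-MCAO + tPA rat, and the highest low value 2.69, in a Naive rat, which leaves an empty interval of 3.21. This lowest high value stood somewhat apart from the rest of its level, since the next high array measured 6.58. The boundary was set at 4.30, the middle of the widest gap with at least 4 arrays on each side. The high arrays spanned 3.99 (5.90 to 9.89, SD 0.99, n = 24) and the low arrays 0.40 (2.29 to 2.69, SD 0.14, n = 18), so that nearly all variation within a level was among the high arrays.

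The medians of the high and low levels were 8.08 and 2.39, a distance of 5.70. All 24 high values were above the median of their own array, where 71.1% to 95.6% of probe sets were lower. All 18 low values were below their array's median, and between 15.6% and 40.3% of probe sets were lower still. The low level thus lay among the dim probe sets of the array, where GC-RMA values do not scale with transcript abundance, and the distance between the levels is not a measured fold of transcript. In whole blood, fewer cells that express a gene and less of its RNA per cell cannot be told apart.

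Ordered by group median, Serpinb11 was 8.72 in Permanent-MCAO, 7.87 in Permanent-MCAO + tPA, 7.76 in Anesthesia, 6.87 in tPA, 5.40 in Reperfused-MCAO, 2.49 in Reperfused-MCAO + tPA and 2.35 in Naive rats. The ranges of neighbouring groups overlapped at each step of this order. The group means were 3.02 ± 1.42 in Reperfused-MCAO + tPA and 5.60 ± 3.41 in Reperfused-MCAO rats (SD, n = 6 each), a difference of -2.58 with a standard error of 1.45. With such a split, a group mean falls where few or no rats were measured and mainly counts the rats at each level.

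Permanent-MCAO + tPA averaged 7.28 ± 2.60 and Permanent-MCAO 7.89 ± 2.72 (SD, n = 6 each), a difference of -0.62 with a standard error of 1.47. Its sign rests on 1 rat, since without the low Permanent-MCAO + tPA rat the difference was 0.38. The tPA group averaged 5.72 ± 2.72 and Anesthesia 7.67 ± 0.59 (SD, n = 6 each), a difference of -1.95 with a standard error of 1.09. Over the 3 groups given tPA 10 of 18 rats were high, against 14 of 18 rats in their 3 counterparts without tPA.

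Reperfused-MCAO differed from Anesthesia by -2.07 (standard error 1.35) and Permanent-MCAO from Anesthesia by 0.22 (standard error 1.08). Leaving out the high Permanent-MCAO replicate 2 or 4 turned the difference of Permanent-MCAO from Anesthesia to -0.06 or -0.17. It stayed positive without any other high Permanent-MCAO rat, and without the low rat it was 1.31 (standard error 0.35). High rats numbered 4 of 12 in the reperfused groups together and 10 of 12 in the permanent groups together. These comparisons use the Anesthesia rats in common.

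Anesthesia rats averaged 7.67 ± 0.59 and Naive rats 2.44 ± 0.16 (SD, n = 6 each), a difference of 5.23 with a standard error of 0.24. Every Anesthesia rat exceeded every Naive rat at 17 of 31042 probe sets (0.0548%), with Serpinb11 among them. The next named difference among these 17 was that of RT1-CE5, a class I gene of the major histocompatibility complex, at 1.18 (standard error 0.40). Since the gene was chosen for its 2 levels, its place among these probe sets is given as a description.

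Few probe sets of the array were divided in this manner. The widest gap was 0.0886 at the median probe set, and 7 of 31042 probe sets (0.0226%) had one at least as wide as that of Serpinb11, itself included. Its standard deviation within groups, 2.25, ranked 11 among all probe sets, where the median was 0.229. Of 16 probe sets with a gap of at least 2, 8 had a single gene symbol.

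RT1-Bb, the beta chain of a rat class II histocompatibility molecule, was seen by a pair of probe sets with gaps of 5.66 and 4.64 and with 35 and 21 arrays at the upper level. Ctrb1, the pancreatic protease chymotrypsinogen B, had a gap of 4.87 with 27 arrays above it. The others were Klkb1, encoding plasma prekallikrein (gap 2.67, 7 arrays above), Psca, a cell surface antigen (2.30, 9 above), RT1-Ba, the class II alpha chain (2.25, 38 above), and Cpa3, the carboxypeptidase of mast cells (2.19, 8 above).

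None of these divided the rats as Serpinb11 did. The 15 others with a gap of at least 2 placed 15 to 24 of the 42 arrays on the same side as Serpinb11. Over all other probe sets the highest number on the same side was 30, reached by 4 probe sets. No other measured transcript was thus high and low on the same arrays as Serpinb11. A transcript divided in the opposite sense would not be seen by this count.

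**Figure D2:**
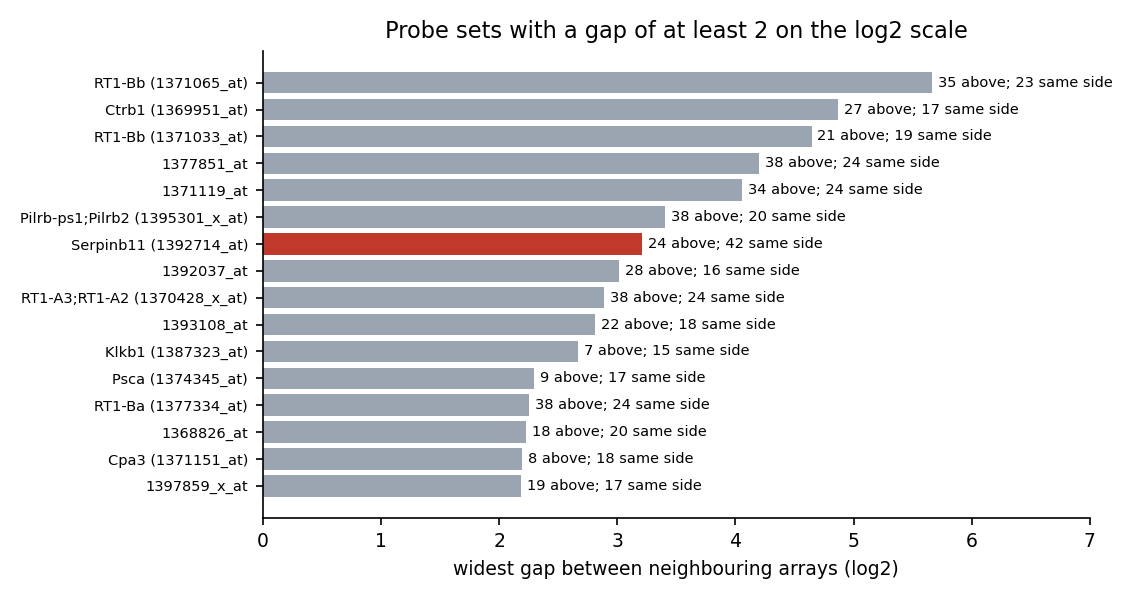
Widest gap between neighbouring arrays in log2 units (horizontal axis) for the 16 probe sets in which it was at least 2 with at least 4 arrays on each side, with the number of arrays above the gap and the number on the same side as Serpinb11 beside each bar. Serpinb11, in red, has a gap of 3.21 with 24 arrays above it, and the other bars share 15 to 24 arrays with it.

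To ask which transcripts moved with Serpinb11 inside the groups, the log2 level of each other probe set was fitted in limma on the 7 group means and the Serpinb11 level of the array. After Benjamini-Hochberg adjustment 0 of 31041 probe sets (0%) had an adjusted p of at most 0.05, and the smallest adjusted p was 0.127. At an unadjusted p under 0.05 there were 1957 (6.30%). No other tool was run. Rtp4 and Slc15a4, both with a negative slope, shared that smallest value.

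Likeness was then described by Pearson's r between each probe set and Serpinb11 over the 42 arrays after centring on the group means. Over all other probe sets r had a median of 0.038, with 5% below -0.299 and 5% above 0.293. The arrays share depth of signal, processing and blood composition, so r carries no p here. For the probe sets named below, the fitted change is the slope times the distance of 5.70 between the levels, and each reached at least a 1.2-fold change. They were selected on r itself, so the values describe the extremes of a distribution.

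Among probe sets with 1 gene symbol and such a change, the 10 highest belonged to 8 genes, with r between 0.57 and 0.63. Over all other probe sets the highest r was 0.66, at a probe set outside this selection. Ctla2a, encoding a cathepsin L inhibitor of the mouse named for cytotoxic T lymphocytes, led these 10 with r = 0.63 and a fitted change of 0.57 (adjusted p = 0.211 in limma). Cfap144, a component of cilia and flagella, had r = 0.62 with a fitted change of 1.11, at a mean level of 3.10, which is near the dim end. The kinase Nlk, a regulator of Wnt and other signalling, appeared with 2 of its probe sets, 1385266_at (0.61) and 1379218_at (0.57). C1galt1, the enzyme that extends O-linked glycans, was named likewise by 1387446_at (0.59) and 1391994_at (0.58).

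Gata3, a transcription factor of T helper and innate lymphoid cells, had r = 0.59 with a fitted change of 0.53. Stau2, which binds double-stranded RNA and transports it, had r = 0.58 with a fitted change of 0.86. Cd9, a tetraspanin abundant on platelets, had r = 0.57 with a fitted change of 0.64. Sfxn1, a mitochondrial serine transporter, completed the set with r = 0.57 with Pearson's measure and 0.40 with Spearman's. The fitted changes of these 10 were between 0.48 and 1.11, far below the distance of 5.70 in Serpinb11 itself.

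The 5 lowest under the same selection were Rtp4 (r = -0.66, fitted change -0.99), Slc15a4 (-0.65, -0.49), Asph (-0.63, -0.60), Eif2ak2 (-0.57, -0.56) and Lilra5 (-0.56, -0.81). Rtp4 encodes an interferon-induced receptor transporter protein, and Eif2ak2 the interferon-induced, double-stranded RNA-activated kinase PKR. Slc15a4 carries histidine and peptides out of endolysosomes and is needed for Toll-like receptor signalling there. Asph hydroxylates aspartate and asparagine in epidermal growth factor-like domains, and Lilra5 is an activating leukocyte immunoglobulin-like receptor of monocytes. Their adjusted p values in limma lay between 0.127 and 0.435, together with those of the 10 highest.

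The 5 groups with both levels hold 32 pairs of a high and a low rat of the same group. The median probe set was higher in the high rat in 17 of the 32 pairs, with 5% of probe sets at 10 or fewer and 5% at 23 or more, and none was higher or lower in all 32. Asph was lower in the high rat in 31 pairs, Slc15a4 and Eif2ak2 in 29, Rtp4 in 28 and Lilra5 in 26. Among the 10 highest the high rat exceeded the low one in 23 to 29 pairs, with 29 for Cfap144 and Stau2. The pairs use the same rats repeatedly and are not independent. These probe sets were selected on r over the same arrays, so their counts are no separate support.

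Rtp4 shows how far this went. In Permanent-MCAO + tPA rats it measured 5.44, 5.63, 6.04, 6.30 and 6.25 in the high rats and 7.38 in the low rat. In Permanent-MCAO rats it was 7.07, 6.83, 7.17, 7.44 and 6.78 in the high rats and 8.23 in the low rat. The low rat was above every high rat in both groups.

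In Reperfused-MCAO rats Rtp4 was 6.54, 7.70 and 6.40 in the high rats and 7.70, 8.20 and 7.76 in the low rats, where the 7.70 of the high rat lay just below that of the low rat. In the tPA group it was 7.52, 8.18, 7.19 and 7.48 in the high rats and 8.50 and 8.18 in the low rats, so the levels met. In the Reperfused-MCAO + tPA group the high rat had 7.78, inside the range of 7.01 to 8.07 of the low rats. Anesthesia rats, all high for Serpinb11, ranged from 7.09 to 8.10, and Naive rats, all low, from 6.49 to 8.27, so that Rtp4 did not divide those groups.

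Stau2 was among the highest by r. In the Reperfused-MCAO + tPA group it measured 4.96 in the high rat and 3.53, 4.19, 4.58, 4.68 and 4.61 in the low rats. Reperfused-MCAO rats had 5.81, 4.47 and 5.42 in the high rats and 3.85, 4.16 and 4.96 in the low rats, where 1 low rat lay above 1 high rat. The levels did not overlap in the next pair of groups. In the tPA group it had 4.82, 4.23, 4.62 and 4.61 in the high rats and 3.99 and 3.77 in the low rats. Permanent-MCAO rats had 5.15, 5.31, 4.56, 6.30 and 4.92 in the high rats and 4.27 in the low rat. In Permanent-MCAO + tPA rats the low rat, at 5.00, lay above 2 of the high rats, which had 6.06, 5.93, 5.21, 4.78 and 4.51. Anesthesia rats ranged from 3.79 to 5.26 and Naive rats from 3.77 to 4.34, which overlap.

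**Figure D3:**
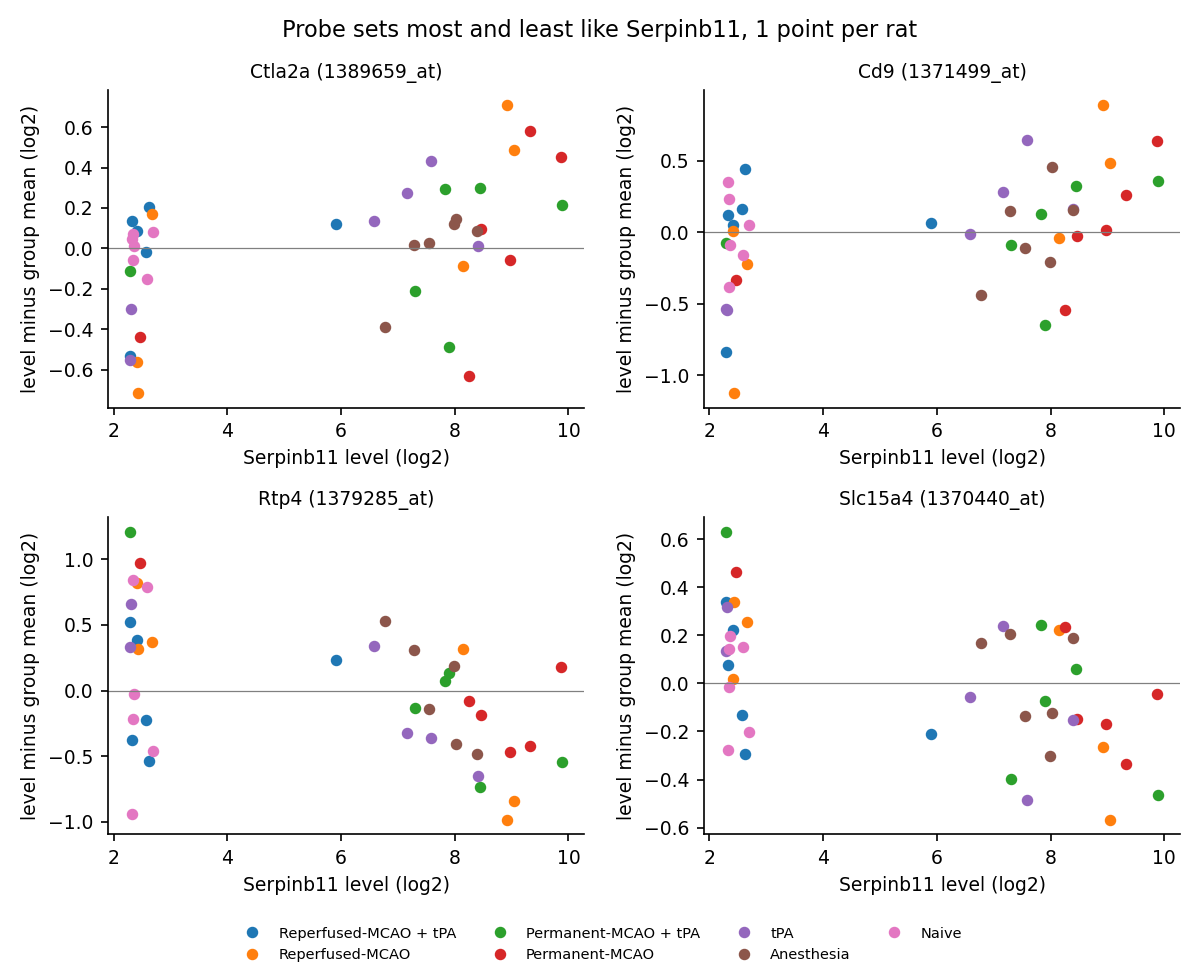
Level of Ctla2a, Cd9, Rtp4 and Slc15a4 minus the group mean (vertical axes, log2) against the Serpinb11 level of the same rat (horizontal axes, log2), with 1 point per rat coloured by group. The points form 2 clouds on the horizontal axis with none between 2.69 and 5.90, and the vertical ranges of the clouds overlap in all 4 panels.

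Within the 24 high arrays, centred again on their group means, r was 0.25 to 0.62 for the 10 highest probe sets and -0.60 to -0.29 for the 5 lowest, with Cd9 at 0.62 and Rtp4 at -0.60 at the ends. These arrays are among the 42 on which the probe sets were selected, so the signs are no separate support. Within the 18 low arrays r was -0.41 to 0.62 for the 10 and -0.39 to 0.59 for the 5, over Serpinb11 values that spanned 0.40 among the dim probe sets. The named probe sets were not themselves divided into levels, since their widest gap was at most 0.46.

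The other clade B serpins were compared next. Of 10 measured, 4 stayed below 4 on every array: Serpinb3, Serpinb12, Serpinb7 and Serpinb9b. These include the nearest clade B genes on both sides of Serpinb11, with means of 2.56, 2.65 and 2.75 for Serpinb3, Serpinb12 and Serpinb7. Serpinb2, the plasminogen activator inhibitor of macrophages, averaged 3.93 (2.95 to 6.67), and Serpinb10, a serpin of hematopoietic cells also called bomapin, averaged 8.19 (6.87 to 10.46).

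Likeness to Serpinb11 was highest for Serpinb6a, an inhibitor of cathepsin G in its human form, at r = 0.42 (adjusted p = 0.657 in limma), and lowest for Serpinb1a, which in the mouse inhibits neutrophil elastase, at -0.18. The median over the 10 genes was 0.14, against 0.038 over all probe sets, and 1 of 10 had an unadjusted p under 0.05, against 6.30% of all probe sets. Serpinb7, next to Serpinb11, was on the same side as it in 25 arrays, the most of any clade B gene. Serpinb7 stayed within 2.628 to 2.965, however, so its sides were set by a gap among dim values. Serpinb2, Serpinb3, Serpinb6a, Serpinb6b and Serpinb10 shared 24 arrays with Serpinb11, and the other 4 genes 18 to 20. RT1-Ba, with 38 arrays above its gap, also shared 24.

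Between groups, clade B genes were called where limma gave p at most 0.01 with a fold of at least 1.2, the thresholds of the study. In Reperfused-MCAO + tPA against Reperfused-MCAO, 1 of 10 was called, against 0.722% of all probe sets. It was Serpinb6a, at 8.36 ± 0.89 with tPA and 10.29 ± 0.69 without (SD, n = 6 each), a difference of -1.93 with a standard error of 0.44 and an adjusted p of 0.542 in limma. In Permanent-MCAO + tPA against Permanent-MCAO 0 of 10 were called, against 0.322%, with 1 in limma at an unadjusted p under 0.05 (Serpinb1a, -0.61). Serpinb6a differed by -0.12 there (standard error 0.47). The difference between those tPA effects was tested in limma for the 10 genes and gave a smallest adjusted p of 0.978.

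In tPA against Anesthesia 2 of 10 were called, against 13.7% of all probe sets, a share near the background. Serpinb1a was 10.06 ± 0.46 and 9.32 ± 0.34 (SD, n = 6 each; adjusted p = 0.0541 in limma), and Serpinb6b was 9.37 ± 0.27 and 8.88 ± 0.14 (SD, n = 6 each; adjusted p = 0.028 in limma), both higher with tPA. Serpinb2 was lower with tPA, at 3.03 ± 0.07 and 3.65 ± 0.56 (SD, n = 6 each), and did not pass (unadjusted p = 0.0183 and adjusted p = 0.0889 in limma). The dim Serpinb7 was also lower with tPA, by -0.11 (adjusted p = 0.0246 in limma), which is less than the fold required.

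In Reperfused-MCAO against Anesthesia 2 of 10 were called, against 6.00%. Serpinb1a was 11.28 ± 1.07 and 9.32 ± 0.34 (SD, n = 6 each; adjusted p = 0.0486 in limma), and Serpinb6a 10.29 ± 0.69 and 8.98 ± 0.82 (SD, n = 6 each; adjusted p = 0.154 in limma). In Permanent-MCAO against Anesthesia 1 of 10 was called, against 2.78%. This was Serpinb1a, at 10.62 ± 0.36 and 9.32 ± 0.34 (SD, n = 6 each; adjusted p = 0.0398 in limma). In Anesthesia against Naive, where Serpinb11 differed most, 0 of 10 were called in limma, against 0.821%, with 1 at an unadjusted p under 0.05. That 1 gene was Serpinb6a, with a difference of 1.22 (standard error 0.45).

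The 10 nearest measured genes on either side of Serpinb11 in RefSeq order were taken as neighbours, the clade B genes among them. Of these 20, 12 stayed below 4 on every array. Their median r with Serpinb11 was 0.16, from -0.36 for Relch, which takes part in endosomal cholesterol transport, to 0.33 for Rnf152, a lysosomal ubiquitin ligase. At an unadjusted p under 0.05 in limma there were 3 of 20, against 6.30% of all probe sets. Rnf152 and Tsn (a nucleic acid-binding protein, r = 0.33) were positive and Relch negative, and the smallest adjusted p was 0.742. Neighbours shared 18 to 25 arrays with the levels of Serpinb11.

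Among 26 measured serine proteases, the enzymes that inhibitory serpins act on, the median r was 0.11. At an unadjusted p under 0.05 in limma there was 1 of 26, against 6.30% of all probe sets. That gene was Cela1, a pancreatic-type elastase, with r = 0.39. Klkb1 had r = -0.32, St14, encoding the membrane protease matriptase, 0.31, and Plat, which encodes tPA itself, 0.29. Rat Plat was dim in blood, with a mean of 3.13 (2.80 to 4.20), and the injected protein is not measured by an array.

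Marker genes of blood cells were examined because whole blood is a mixture. Markers of red cells, T cells, B cells, neutrophils, monocytes and platelets were mostly bright in this blood, with list medians of 7.25 to 12.03. The monocyte markers Cx3cr1 and Ms4a7 stayed below 4 on every array, and the B cell marker Vpreb3 averaged 3.32. Platelet markers lay to the positive side of Serpinb11: 8 of 8 measured had r above 0, the median was 0.34, and 6 of 8 had an unadjusted p under 0.05, against 6.30% of all probe sets. They were Clu (clusterin, r = 0.45), Treml1 (a receptor of platelet granules, 0.37), F13a1 (factor XIII A chain, 0.36), Itgb3 and Itga2b (the chains of the platelet fibrinogen receptor, 0.35 and 0.34) and Ppbp (a platelet chemokine, 0.34). The smallest adjusted p among them was 0.585 in limma, so no platelet marker passed over the whole array. Markers of 1 cell type on the same arrays can vary together, so these 8 are not independent.

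The log2 of the summed platelet marker signal ranged over 13.85 to 14.93 in Reperfused-MCAO + tPA, 14.23 to 15.14 in Reperfused-MCAO, 14.31 to 15.05 in Permanent-MCAO + tPA, 14.36 to 15.16 in Permanent-MCAO, 13.88 to 14.50 in tPA, 14.08 to 14.70 in Anesthesia and 13.92 to 14.51 in Naive rats. The ranges of all groups overlapped. The mean platelet marker level had r = 0.38 with Serpinb11 within groups. The part of platelets in the levels of Serpinb11 was not tested.

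Monocyte markers were mixed, with r below 0 for 6 of 10 genes and above 0 for 4, and a median of -0.25. At an unadjusted p under 0.05 in limma there were 3 of 10, against 6.30% of all probe sets. All 3 were negative: Fcgr3a (an activating Fc receptor, -0.52), Csf1r (the receptor of macrophage colony-stimulating factor, -0.45) and Cd68 (a lysosomal glycoprotein of macrophages, -0.43). The genes above 0 were Cd14, the lipopolysaccharide co-receptor (0.18), Ccr2, a chemokine receptor (0.15), Vcan, a proteoglycan (0.12), and the dim Ms4a7 (0.07). The 6 B cell markers were negative throughout, with a median of -0.25. Of these, 0 of 6 had an unadjusted p under 0.05 in limma, against 6.30% of all probe sets. The 9 neutrophil and 12 T cell markers measured were negative throughout as well, with medians of -0.12 and -0.09.

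The remaining lists had medians between -0.12 and 0.10: neutrophil -0.12, T cell -0.09, NK and cytotoxic cell -0.04, mast cell and basophil -0.03, erythroid 0.02, heart muscle 0.07 and squamous epithelium 0.10. Squamous epithelium is a tissue in which clade B serpins are abundant. Of its 16 measured markers 14 stayed below 4 on every array, among them Krt5, Krt14, Krt1 and Ivl. The other 2 were Sfn, which was above 4 on every array (4.72 to 6.58, r = -0.22), and Perp (2.29 to 4.22, r = 0.13). An unadjusted p under 0.05 in limma was found for 0 of 16, against 6.30% of all probe sets.

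**Figure D4:**
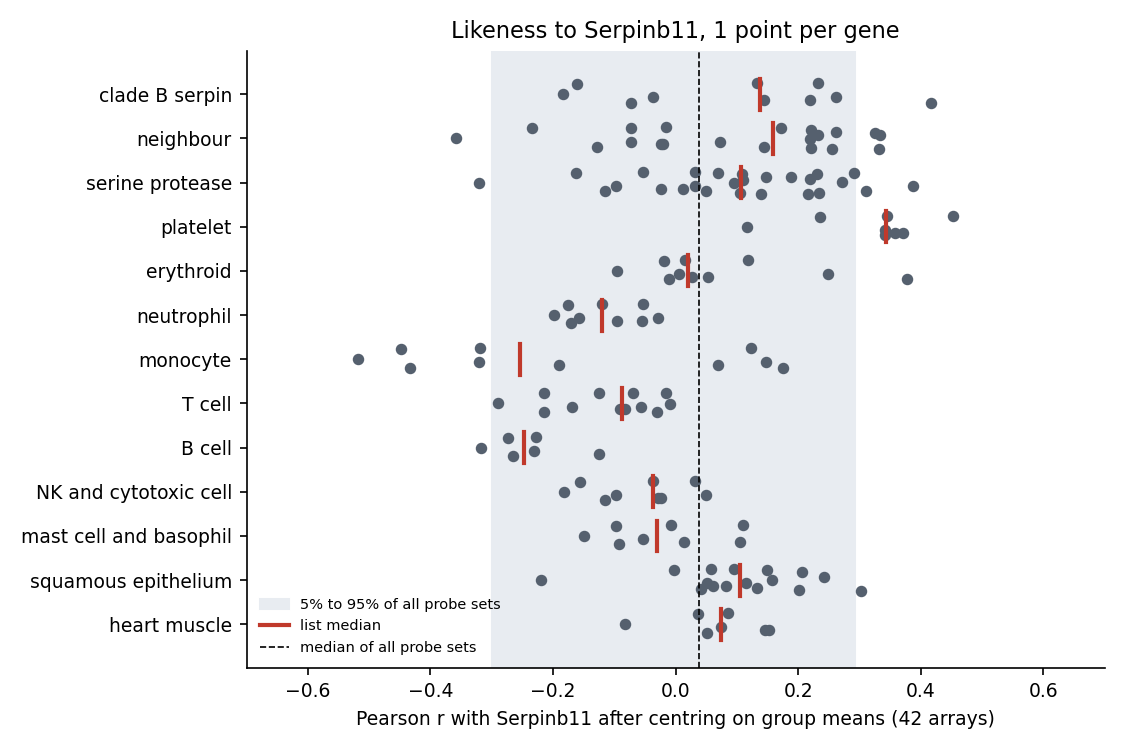
Pearson's r with Serpinb11 after centring on group means over 42 arrays (horizontal axis) for each measured gene of 13 lists (rows), with list medians in red, the median of all probe sets dashed and their 5% to 95% range shaded. Platelet markers sit on the right with a median of 0.34, and monocyte and B cell markers on the left with medians of -0.25.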

How the data were processed

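The deposited values are log2 expression levels, which the authors computed by GC-RMA in Partek. Each of 42 arrays was matched to its rat by title. The 57 control probe sets were left out, leaving 31042, of which 20826 have 1 symbol, 436 several and 9780 none in the platform annotation. Array medians lay between 3.05 and 3.26. Depth has no meaning for arrays, and 6 rats a group limit the precision. Genes and lists were chosen with earlier results of these data known.

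Fits used limma 3.58.1 (R 4.3.3) with Benjamini-Hochberg adjustment over all probe sets, and each group comparison its own 12 arrays. The fits were tested on simulated data. Named were Serpinb11, the 10 highest and 5 lowest r among probe sets with 1 symbol and a fitted change of at least 1.2-fold, clade B serpins, neighbours in RefSeq order and the 4 serine proteases of largest r. Genes with a wide gap, list markers and neighbours with an unadjusted p under 0.05 and genes singled out otherwise were named after their values were seen. A gene with several probe sets was represented in lists by that of highest mean. Gene order and the promoter come from RefSeq (GRCr8), which was used for nothing else but names. Figures used Python 3.11.15. The alternatives are given in the closing section.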

Additional observations from a re-analysis of the deposited data

Results flagged for a closer look

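In groups of 6 rats, the highest or lowest rat was set against the others by Dixon's criterion. For Serpinb11, which was chosen for its 2 levels, a lone rat at the other level stands apart by construction, so these 3 rats are given as a description: 5.90 in 1 Reperfused-MCAO + tPA rat (others 2.29 to 2.62), 2.30 in 1 Permanent-MCAO + tPA rat (others 7.30 to 9.89) and 2.47 in 1 Permanent-MCAO rat (others 8.25 to 9.87).

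For the 15 probe sets named for the highest and lowest r with Serpinb11, 8 of 105 groups held a rat that stood apart, where chance alone gives about 1 in 20. In Reperfused-MCAO + tPA replicate 2, Ctla2a was 8.25 (others 8.77 to 8.99) and Cd9 10.10 (others 10.98 to 11.37). This rat was 1 of the 5 with low Serpinb11 in its group. Ctla2a was also low at 8.44 in Anesthesia replicate 3, the rat with the lowest Serpinb11 of that group. Both probe sets were selected for their r with Serpinb11 over the same arrays, so such agreement is no separate support. Asph was 5.51 in Anesthesia replicate 5 (others 6.11 to 6.38). C1galt1 (1387446_at) was 4.92 in tPA replicate 5 (others 3.35 to 3.88). Among Naive rats, replicate 3 had Cfap144 at 3.36 (others 2.27 to 2.58) and Eif2ak2 at 5.68 (others 6.57 to 7.05), and replicate 2 had Sfxn1 at 5.35 (others 5.92 to 6.26).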

How the results depend on the processing

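The count of 24 high arrays, with the same 42 assignments, was obtained by 2-means clustering, by centring arrays on their medians and by quantile normalization. A comparison of several Serpinb11 probe sets was not run, because 1 probe set carries the symbol.

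The count of 0 probe sets following Serpinb11 was unchanged under 14 of 15 alternatives other than single omitted arrays, and the smallest adjusted p was 0.0282 to 0.459 over the 15. Without the Naive group it was 1 (Rtp4, adjusted p = 0.0282 in limma). Leaving out each array in turn, chosen like the fit of the 5 groups with both levels after seeing the data, gave 0 to 4. The 4 arose without Reperfused-MCAO replicate 5 and were Slc15a4, Rtp4, Asph and an unnamed probe set (smallest adjusted p = 0.0271). The cause was not tested.

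Over omitted arrays the Serpinb11 difference ranged from -3.22 to -1.89 for Reperfused-MCAO + tPA against Reperfused-MCAO, -1.70 to 0.38 for Permanent-MCAO + tPA against Permanent-MCAO, -2.49 to -1.26 for tPA against Anesthesia, -2.76 to -1.43 for Reperfused-MCAO against Anesthesia, -0.17 to 1.31 for Permanent-MCAO against Anesthesia and 5.08 to 5.41 for Anesthesia against Naive. The sign turned without Permanent-MCAO + tPA replicate 5 (0.38) and, against Anesthesia, without Permanent-MCAO replicate 2 (-0.06) or 4 (-0.17).

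Under 10 alternatives, Spearman's measure and omission of each group among them, all 15 named probe sets kept the sign of r, with sizes of 0.40 to 0.75. They were selected on r over these same arrays, which the alternatives reuse, so a kept sign is no separate support. The 6 calls of clade B serpins became 4 to 7, and which genes were called changed too. With the replicate block 1 of 10 was called in Permanent-MCAO + tPA against Permanent-MCAO. With only probe sets of a mean of at least 4, 1 of 5 was called in Anesthesia against Naive. At an adjusted p of at most 0.05 in limma, tPA against Anesthesia gave 1 higher and 1 lower with tPA (Serpinb6b and Serpinb7).

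Replicate numbers did not pair the rats: same-numbered rats of different groups had a mean r of -0.030 over 126 pairs, against 0.006 over 630 others. With a replicate block 0 probe sets followed Serpinb11 (smallest adjusted p = 0.312), and 5 clade B calls were made.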
